A study of Mus musculus with 24 samples.

Results

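Regulators of G protein signalling (RGS proteins) were examined through the transcripts of 7 genes, Rgs1, Rgs2, Rgs3, Rgs10, Rgs14, Rgs16 and Rgs19, out of 25160 genes in the deposited count table. They were taken by gene symbol from a list drawn up with earlier results of these data known, with no threshold on a measured value, and all 7 passed the filter on low counts. The cells were RAW 264.7, a mouse macrophage line, in 2 stable derivatives that express either Nur77 or GFP upon addition of doxycycline. The nuclear receptor Nur77 is the product of Nr4a1, and the study asks how it bears on the inflammatory response of macrophages and on target genes of AP-1, the Fos and Jun factors.

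The 6 groups were the GFP line and the Nur77 line, each after 0, 1 and 5 h of lipopolysaccharide (LPS) at 500 ng/ml, with 4 libraries per group. All 24 libraries, controls and 0 h included, came from cells that had received 50 ng/ml doxycycline for 18 h. Each construct was represented by 1 stable line, so a difference between the constructs and a difference between the lines cannot be told apart. No label states that replicates were separate cultures, and p-values therefore measure the spread between these libraries, which may be technical.

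RGS proteins bind the active, GTP-bound alpha subunit of heterotrimeric G proteins and speed up GTP hydrolysis, which ends signalling from G protein-coupled receptors. In macrophages such receptors include those for chemokines, complement fragments, nucleotides and adenosine. Rgs1, Rgs2, Rgs3 and Rgs16 belong to the R4 subfamily of mostly small proteins, Rgs10 and Rgs14 to the R12 subfamily and Rgs19, also called GAIP, to the RZ subfamily. Rgs2 acts mainly on Gq, and the others act on Gi proteins, several of them also on Gq.

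Depth was 8134143 to 29275847 estimated counts per library. Nr4a1 stood at 2.46 to 3.34 CPM (counts per 1000000 counts of a library) in the GFP line at 0 h and at 2.74 to 3.71 in the Nur77 line, and did not pass the test (adjusted p = 0.868). The sequence of the construct is not given in the sources used here, so Nr4a1 does not check the labels, and the lines are called by their labels throughout. One library stood apart: replicate 2 of the Nur77 line at 1 h lay at 11.7 on the first principal component, which held 48% of the variance, and the other 3 lay at -11.4 to -10.2. Its Nr4a1 level was 9.29 CPM against 39.8 to 42.4 in the other 3. The GFP line at 1 h had 52.0 to 66.8 CPM, and with all 4 libraries Nr4a1 was lower in the Nur77 line there (log2 -0.91, adjusted p = 0.00488). At 5 h Nr4a1 did not pass the test between the lines (0.74, adjusted p = 0.108). Members' values at 1 h in the Nur77 line, and comparisons with them, were also computed without it. Macrophage markers summed to 9361 to 10770 CPM over the libraries of the GFP line and to 4976 to 6299 in the Nur77 line. All 10 of them had counts in every group, although Mertk had 30 counts in all, and the part of the lower sum in the differences between the lines was not tested. All 6 epithelial markers were at 0, and the summed lymphocyte, fibroblast and neutrophil markers reached at most 0.379, 3.92 and 4.58 CPM.

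The identities of the 7 transcripts follow the RefSeq accessions of the table, with gene positions in GRCm38, counted from 1. Rgs2 (NM_009061, chromosome 1, 143999338 to 144004149, minus strand) and Rgs1 (NM_015811, chromosome 1, 144244669 to 144249104) lie 240.5 kb apart, with Rgs13 of the same family between them. Rgs16 (NM_011267, chromosome 1, 153740353 to 153745468, plus strand) lies further along the same chromosome. Rgs3 (NM_001310706) is on chromosome 4, 62559835 to 62703019, on the plus strand, and Rgs10 (NM_026418) on chromosome 7, 128373621 to 128419506, on the minus strand. Rgs14 (NM_001360714) is on chromosome 13, 55369732 to 55384687, and Rgs19 (NM_001291206) on chromosome 2, 181688419 to 181694537, on the minus strand.

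Rgs2 and Rgs16 had the steepest fall and the steepest rise of the 7 after LPS, and both are on chromosome 1, so their promoter sequences are shown side by side. Each is the 250 bases before the RefSeq start of the gene on the coding strand in GRCm38.p6, chr1:144004150-144004399 on the minus strand for Rgs2 and chr1:153740103-153740352 on the plus strand for Rgs16. Capitals mark matches, on either strand, to the letters GGGCGG (SP1), CCAAT, and GAGGAA (PU.1).
Rgs2: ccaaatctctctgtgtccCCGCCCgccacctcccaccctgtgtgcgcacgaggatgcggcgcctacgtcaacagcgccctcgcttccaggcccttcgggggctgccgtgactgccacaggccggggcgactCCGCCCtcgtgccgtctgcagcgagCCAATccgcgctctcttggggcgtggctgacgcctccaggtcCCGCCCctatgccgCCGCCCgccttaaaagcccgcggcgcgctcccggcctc
Rgs16: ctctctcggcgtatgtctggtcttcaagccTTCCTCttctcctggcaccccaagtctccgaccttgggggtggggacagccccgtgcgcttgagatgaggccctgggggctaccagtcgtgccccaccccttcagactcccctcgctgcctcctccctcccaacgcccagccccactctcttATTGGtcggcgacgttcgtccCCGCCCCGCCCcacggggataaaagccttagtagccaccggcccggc
The Rgs2 window held 4 SP1 matches and 1 CCAAT match, and the Rgs16 window held 2 overlapping SP1 matches, 1 CCAAT match and 1 PU.1 match. Of 32851 RefSeq mouse promoters of the same length, 32.7% held the SP1 letters, 33.9% CCAAT and 23.3% the PU.1 letters. Also searched on both strands were TGANTCA (AP-1, in 6.75% of promoters), TGACGTCA (CRE, 1.55%), AAAGGTCA (NBRE, the monomer element of Nur77, 1.34%), TATAAA (12.4%) and a consensus of NF-kB of 10 bases (1.41%). None of these 5 was present in the Rgs2 or Rgs16 window. The letters of a match are a description, and their absence concerns these windows alone. Promoter windows were matched for Rgs2, Rgs3, Rgs10, Rgs16 and Rgs19.

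Before LPS, 4 of the 7 genes differed between the lines. Rgs3 and Rgs19 were higher in the Nur77 line and Rgs1 and Rgs2 were lower, whereas Rgs10, Rgs14 and Rgs16 did not pass the test. A gene was called at a Benjamini-Hochberg adjusted p under 0.05 by edgeR's quasi-likelihood test over 12198 genes. Of all genes tested, 39.9% were called, 20.3% higher and 19.7% lower, so the share called among the members (4 of 7) is read against a large background. After 5 h of LPS all 7 genes differed from 0 h in both lines, beside 62.6% of all genes in the GFP line and 66.7% in the Nur77 line, and the direction of each was the same in both. Levels are CPM after TMM scaling (trimmed mean of M-values), given as mean ± SD.

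**Figure D1:**
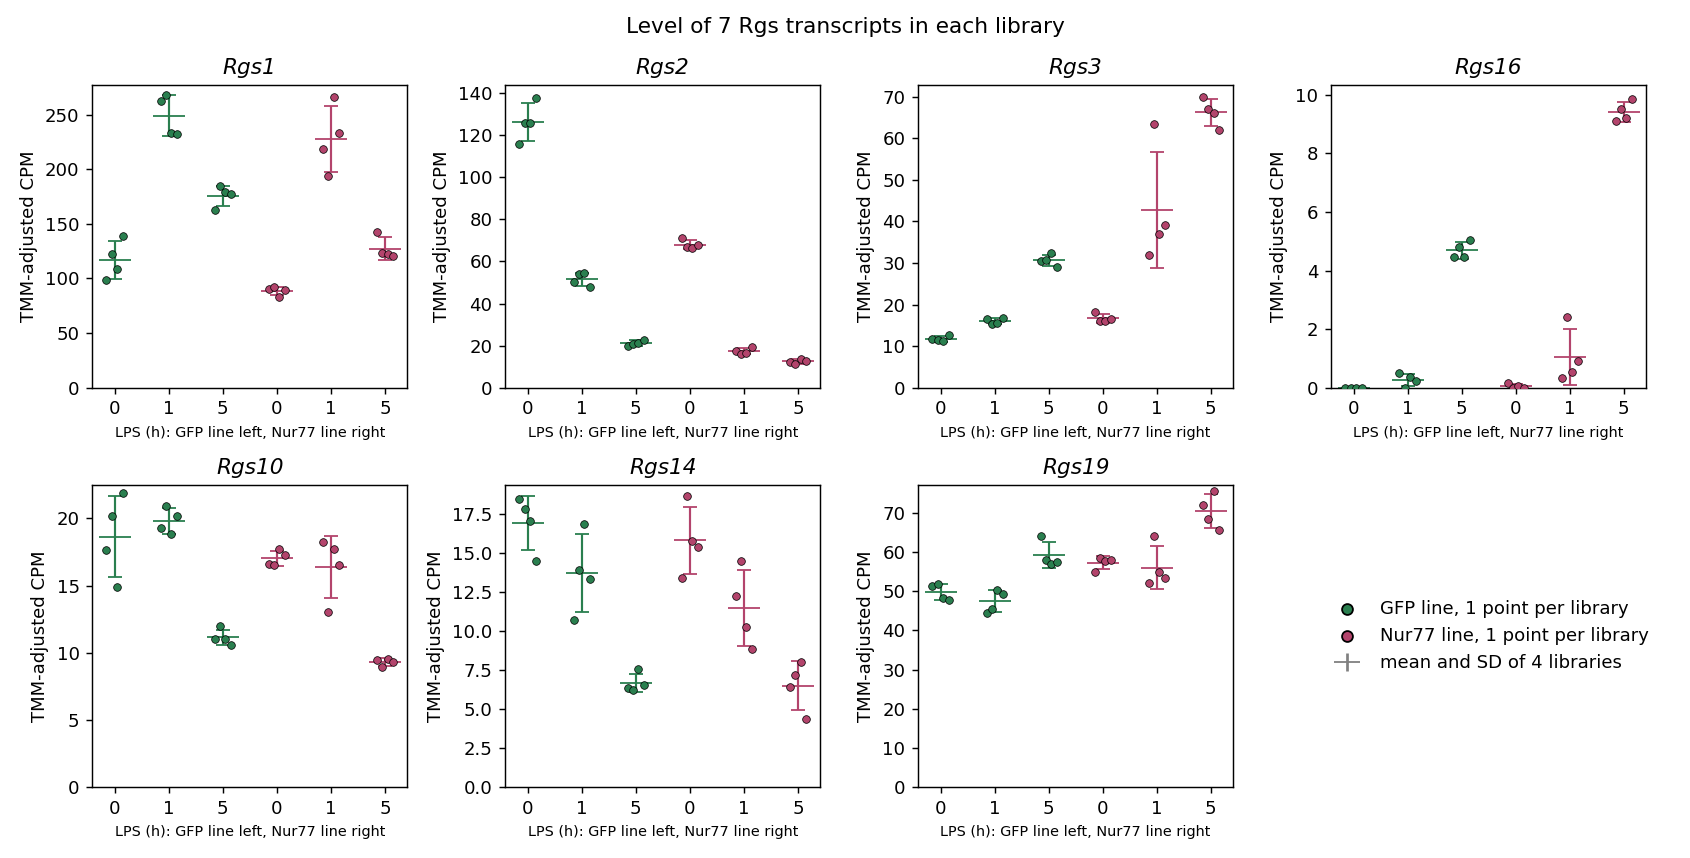
TMM-adjusted CPM of each of the 7 transcripts (vertical axis, linear and starting at 0) in every library, by hours of LPS, for the GFP line (green, left) and the Nur77 line (red, right). Points are libraries and bars are mean and SD of 4. Rgs2 falls from 126 CPM in the GFP line at 0 h to 21.2 at 5 h, Rgs3 and Rgs16 end highest in the Nur77 line at 5 h, and in Rgs3 and Rgs16 1 library of the Nur77 line at 1 h lies above the other 3.

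Rgs2, which limits Gq signalling, fell after LPS and was lower in the Nur77 line at all 3 times. In the GFP line it stood at 115.8, 125.9, 125.9 and 137.6 CPM at 0 h, at 50.0, 53.9, 54.3 and 48.0 at 1 h, and at 19.7, 21.0, 21.5 and 22.8 at 5 h. The Nur77 line had 71.0, 67.0, 66.3 and 67.9 CPM at 0 h, 17.6, 16.0, 16.6 and 19.3 at 1 h, and 12.04, 11.4, 13.8 and 12.6 at 5 h. No 2 groups overlapped, and the order from high to low was GFP 0 h, Nur77 0 h, GFP 1 h, GFP 5 h, Nur77 1 h and Nur77 5 h. The Nur77 line after 1 h of LPS was thus below the GFP line after 5 h. In bulk RNA, fewer cells with a transcript and less of it per cell cannot be told apart, here and in all results that follow.

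The line difference of Rgs2 was 1.86-fold at 0 h, with a log2 difference of -0.89 (SE 0.066, adjusted p = 3.57e-11). It was 2.98-fold at 1 h (log2 difference -1.57, SE 0.072, adjusted p = 2.16e-15), or -1.54 on the log2 scale without the library that stood apart, and 1.71-fold at 5 h (-0.77, SE 0.076, adjusted p = 6.64e-09). After 1 h of LPS Rgs2 fell 2.45-fold in the GFP line and 3.93-fold in the Nur77 line. After 5 h the falls were 5.96-fold and 5.48-fold. On the log2 scale, most of the fall in the Nur77 line had therefore occurred by 1 h. The step from 1 to 5 h was 1.39-fold there against 2.43-fold in the GFP line. In CPM the larger part of the fall came by 1 h in the GFP line too, from a mean of 126.3 to 51.6 and then 21.2. The fall by 1 h in the Nur77 line was 3.84-fold and the later step 1.42-fold without that library.

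The difference between these responses was itself tested as an interaction, the LPS response in the Nur77 line minus that in the GFP line on the log2 scale. For Rgs2 it was -0.68 at 1 h (95% interval -0.88 to -0.48, adjusted p = 1.67e-04). From 1 to 5 h it was 0.81 (0.59 to 1.02, adjusted p = 1.34e-05), and from 0 to 5 h it was 0.12 (-0.08 to 0.33, adjusted p = 0.522). These 3 values share groups and are not independent. Without replicate 2 of the Nur77 line at 1 h the first was -0.65 (adjusted p = 1.15e-04) and the second 0.77 (adjusted p = 8.94e-06). Of all genes tested, 1.13% were called in the interaction at 1 h, and 0.516% with a lower value in the Nur77 line. Rgs2 and Rgs3 were the 2 members called there.

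Rgs3, a regulator whose longer forms carry added protein interaction regions, rose after LPS and was higher in the Nur77 line at all 3 times. Libraries of the GFP line had 11.7, 11.4, 11.2 and 12.7 CPM at 0 h, 16.6, 15.2, 15.5 and 16.6 at 1 h, and 30.6, 30.8, 32.3 and 28.9 at 5 h. Those of the Nur77 line had 18.2, 16.1, 15.9 and 16.4 CPM at 0 h, 31.8, 63.3, 36.9 and 39.1 at 1 h, and 69.9, 67.0, 66.2 and 62.0 at 5 h. The lines did not overlap at any time. The 63.3 CPM belonged to the library that stood apart, which alone made the Nur77 groups at 1 and 5 h overlap, and the mean at 1 h was 42.8 ± 14.02 with it (n = 4) and 35.9 ± 3.75 without it (n = 3).

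The Nur77 line exceeded the GFP line in Rgs3 by 1.41-fold at 0 h (log2 0.50, SE 0.143, adjusted p = 0.0067), 2.67-fold at 1 h (1.42, SE 0.135, adjusted p = 5.52e-09) and 2.16-fold at 5 h (1.11, SE 0.126, adjusted p = 7.81e-08). Without the library that stood apart the log2 difference at 1 h was 1.17 (adjusted p = 8.75e-13). LPS raised Rgs3 2.61-fold by 5 h in the GFP line and 3.99-fold in the Nur77 line, and 2.56-fold by 1 h in the Nur77 line, or 2.15-fold without the library that stood apart. The 1.35-fold rise at 1 h in the GFP line (adjusted p = 0.0356) lost its call without replicate 1, 2 or 3 at 0 h or any of the 4 libraries at 1 h, with adjusted p-values up to 0.0933, although the 0 and 1 h groups did not overlap. With the library that stood apart left out of the fit, its adjusted p was 9.23e-05.

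The interaction for Rgs3 was 0.92 at 1 h (95% interval 0.51 to 1.32, adjusted p = 0.0169), and 0.67 (adjusted p = 3.9e-04) without the library that stood apart. It lost its call without replicate 4 of the GFP line at 0 h (adjusted p = 0.0585) and in a fit of the 4 groups compared (adjusted p = 0.08). At 5 h it was 0.61 (0.22 to 1.00, adjusted p = 0.0466), a call lost in 15 of 17 omissions of 1 library, with adjusted p-values up to 0.101 and values from 0.57 to 0.67. Without the library that stood apart, which is not in this comparison, it was called (adjusted p = 8.84e-05). It was also called in a fit of the 4 groups compared, which leaves that library out too (0.62, adjusted p = 4.74e-05). Of all genes 7.88% were called in the interaction at 5 h, 2.75% higher and 5.12% lower, and Rgs3 was the 1 member called there, with a higher value.

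The table listed 4 transcripts of Rgs3, and the counts lay on those that end at 62703018 in GENCODE. NM_134257, which shares this end with the transcript used, held 98.4% of its count. The forms NM_019492 and NM_001081650, which end at 62659840, held 0.409% and 0.377%. Between the 2 forms with the shared end the table does not separate the reads.

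Rgs16, known from activated lymphocytes as an induced regulator of Gi and Gq signalling, was almost absent before LPS and rose in both lines. In the GFP line its rounded counts were 0 in all 4 libraries at 0 h, 4, 0, 4 and 4 at 1 h, and 80, 108, 98 and 68 at 5 h. They were 2, 0, 1 and 0 at 0 h, 8, 36, 12 and 10 at 1 h, and 242, 132, 124 and 108 at 5 h in the Nur77 line. As levels, the GFP line reached 4.70 ± 0.285 CPM at 5 h and the Nur77 line 9.42 ± 0.333 (n = 4 each), and these 2 groups did not overlap.

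Over pooled counts of the GFP line, Rgs16 at 0 h was set at a floor of 3 counts over the group. Against this floor the ratio was 113 at 5 h and 4.88 at 1 h. These 2 ratios have no interval, and the counting error of the 1 and 5 h counts is not in them. In the Nur77 line, against 3 counts at 0 h, the ratio was 184 at 5 h (95% interval 62.7 to 896) and 17.8 at 1 h (5.85 to 88.7). The library that stood apart gave 36 of the 66 counts at 1 h, and without it the ratio was 10.2 (3.17 to 52.1). These intervals and floors cover counting error only. By the edgeR test the rise at 5 h was called in the GFP line (adjusted p = 5.09e-09) and in the Nur77 line (adjusted p = 6.57e-10). The rise at 1 h was called in the Nur77 line (log2 4.04, adjusted p = 9.07e-04, and 3.19, adjusted p = 0.00133, without the library that stood apart) and not in the GFP line (adjusted p = 0.0629), and the interaction of the 2 was not called (-0.81, 95% interval -3.09 to 1.46, adjusted p = 0.707). Without that library the interaction was -1.66 (adjusted p = 0.527). In the GFP line the 1 h call was made by DESeq2 (adjusted p = 0.0022), by edgeR without replicate 2 of that group (adjusted p = 0.0204), and by edgeR without the library that stood apart (adjusted p = 0.00652).

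Between the lines Rgs16 was 2.01-fold higher in the Nur77 line at 5 h (log2 1.00, SE 0.295, adjusted p = 0.00808), a call not made by DESeq2 (adjusted p = 0.0927). At 1 h the fitted difference was 4.47-fold (log2 2.16, SE 0.663, adjusted p = 0.00986). Without the library that stood apart it was 1.32 on the log2 scale (adjusted p = 0.0489), and without replicate 2 of the GFP line at 1 h, whose count was 0, it was 1.53 (adjusted p = 0.0523). The groups at 1 h overlapped. At 0 h the 2 lines were at or under the floor of 3 counts, and no fold is given.

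Rgs1, a regulator of chemokine receptor signalling in lymphocytes and other leukocytes, peaked at 1 h. The GFP line had 98.5, 122.7, 108.3 and 138.5 CPM at 0 h, 262.9, 267.7, 233.6 and 232.2 at 1 h, and 162.9, 184.2, 179.1 and 177.2 at 5 h. The Nur77 line had 89.9, 92.4, 83.2 and 89.2 CPM at 0 h, 218.7, 193.9, 266.0 and 232.9 at 1 h, and 142.9, 123.7, 122.7 and 120.3 at 5 h. The 1 h group was above the others in each line, and the lines were apart at 0 and 5 h but overlapped at 1 h.

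LPS raised Rgs1 2.13-fold by 1 h in the GFP line (adjusted p = 8e-10) and 2.57-fold in the Nur77 line (adjusted p = 9.79e-12). From 1 to 5 h it fell 1.42-fold (adjusted p = 4.89e-05) and 1.79-fold (adjusted p = 2.73e-08). In the Nur77 line the rise and fall were 2.70-fold and 1.87-fold without the library that stood apart. Rgs1 was 1.32-fold lower in the Nur77 line at 0 h (log2 -0.40, SE 0.094, adjusted p = 0.00119) and 1.38-fold lower at 5 h (-0.46, SE 0.092, adjusted p = 1.96e-04). At 1 h the difference was -0.13 (95% interval -0.32 to 0.06, adjusted p = 0.25), and -0.06 without that library (adjusted p = 0.612). None of the 3 interactions of Rgs1 passed the test. From 1 to 5 h it was -0.34 (adjusted p = 0.13), and it was called at -0.40 (adjusted p = 0.0306) without the library that stood apart.

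Rgs1 and Rgs2 thus had opposite courses at 1 h in both lines. In the interaction from 1 to 5 h, 6.55% of all genes were called, 2.59% with a higher and 3.96% with a lower value in the Nur77 line, and Rgs2 was the 1 member among them. In the fit that left out the library that stood apart 10.2% were called, with Rgs1 and Rgs2 among them.

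**Figure D2:**
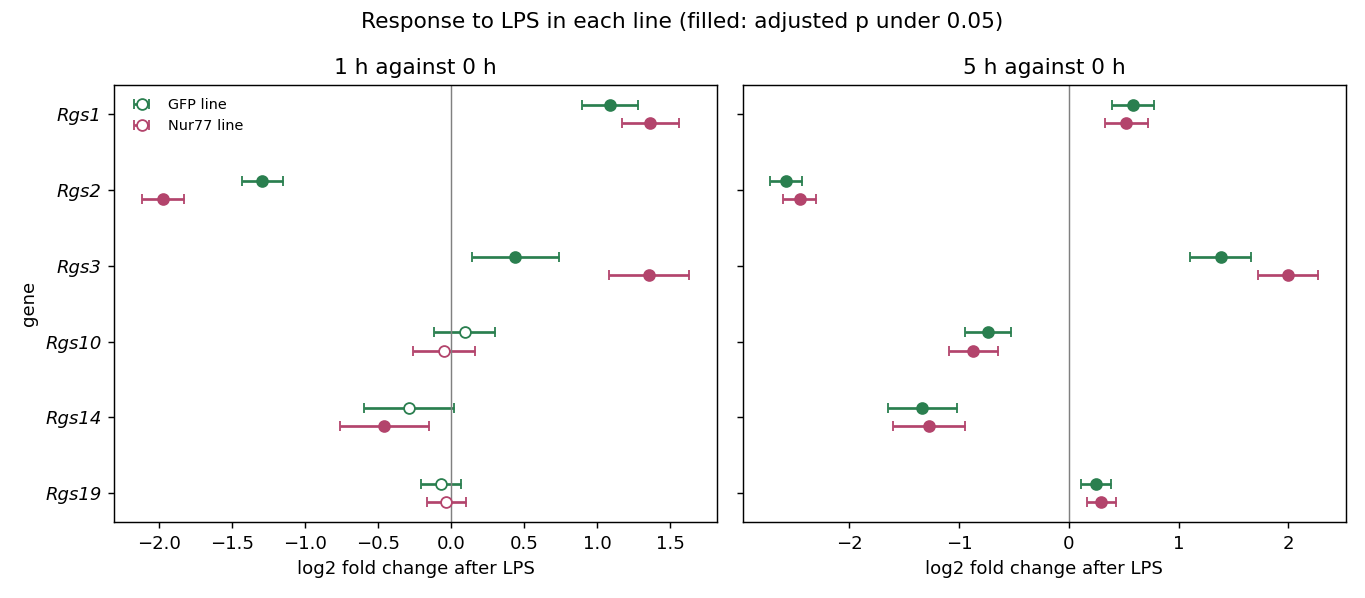
Log2 fold change after LPS (horizontal axis) of 6 of the 7 genes, at 1 h against 0 h (left) and 5 h against 0 h (right), in the GFP line (green) and the Nur77 line (red). Points are edgeR estimates, bars are 95% intervals, and filled points have an adjusted p under 0.05. Rgs16 is left out because its 0 h counts are at or near 0. At 1 h Rgs2 lies at -1.29 in the GFP line and -1.97 in the Nur77 line, and at 5 h at -2.58 and -2.45.

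Rgs10, a small protein that is abundant in microglia and macrophages, fell by 5 h in both lines. It ranged over 14.9 to 21.9 CPM in the GFP line at 0 h, 18.8 to 20.9 at 1 h and 10.6 to 11.97 at 5 h. For the Nur77 line the ranges were 16.6 to 17.7, 13.1 to 18.2 and 8.94 to 9.58 CPM. The 5 h groups lay below all others. The fall by 5 h was 1.67-fold in the GFP line (adjusted p = 8.09e-07) and 1.83-fold in the Nur77 line (adjusted p = 1.13e-07), and neither line was called at 1 h.

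At 5 h the 2 lines did not overlap in Rgs10, with a log2 difference of -0.26 (SE 0.109) that missed the threshold (adjusted p = 0.054). It passed without the library that stood apart, which is not in this comparison (adjusted p = 0.0268), and in a fit of these 2 groups (adjusted p = 0.0134). At 1 h the lines did not overlap either, and the difference of -0.27 was called (adjusted p = 0.0279). That call was lost without the library that stood apart (-0.18, adjusted p = 0.114), without replicate 2 (adjusted p = 0.0807) or replicate 4 (adjusted p = 0.0598) of the GFP line at 1 h, and in a fit of these 2 groups (adjusted p = 0.0846).

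Rgs14, which also binds inactive Gi through a GoLoco motif and carries Ras-binding regions, fell by 5 h as well. It ranged over 14.5 to 18.4 CPM in the GFP line at 0 h, 10.7 to 16.8 at 1 h and 6.23 to 7.55 at 5 h, and over 13.4 to 18.6, 8.88 to 14.5 and 4.38 to 8.02 CPM in the Nur77 line. The falls by 5 h were 2.52-fold (adjusted p = 3.78e-08) and 2.41-fold (adjusted p = 1.32e-07). At 1 h the value in the Nur77 line was -0.46 (adjusted p = 0.0153), a call lost without replicate 2 at 0 h (adjusted p = 0.0704) and without replicate 3 (adjusted p = 0.055) or 4 (adjusted p = 0.053) at 1 h. It was -0.57 (adjusted p = 0.00265) without the library that stood apart. The lines overlapped at all 3 times, and none of the 3 line comparisons passed the test. Their 95% intervals were -0.39 to 0.21 at 0 h, -0.57 to 0.05 at 1 h and -0.38 to 0.31 at 5 h on the log2 scale. Without the library that stood apart, the 1 h difference was -0.38 and was called (adjusted p = 0.0343).

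Rgs19, which acts on Gi proteins and is found on membranes of the secretory route, showed small shifts. In the GFP line it ranged over 47.9 to 51.8 CPM at 0 h, 44.6 to 50.2 at 1 h and 57.0 to 64.2 at 5 h. For the Nur77 line the ranges were 55.0 to 58.5, 52.0 to 64.0 and 65.7 to 75.6 CPM. The lines did not overlap at any of the 3 times. The Nur77 line was 1.15-fold higher at 0 h (log2 0.20, adjusted p = 0.0157), 1.18-fold at 1 h (0.24, adjusted p = 0.00419) and 1.19-fold at 5 h (0.25, adjusted p = 0.00256). At 1 h the difference was 0.17 without the library that stood apart (adjusted p = 0.0225), and the call was lost in a fit of these 2 groups (adjusted p = 0.0569). By 5 h Rgs19 rose 1.19-fold in the GFP line (adjusted p = 0.00182) and 1.23-fold in the Nur77 line (adjusted p = 3.08e-04), and it was not called at 1 h in either.

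**Figure D3:**
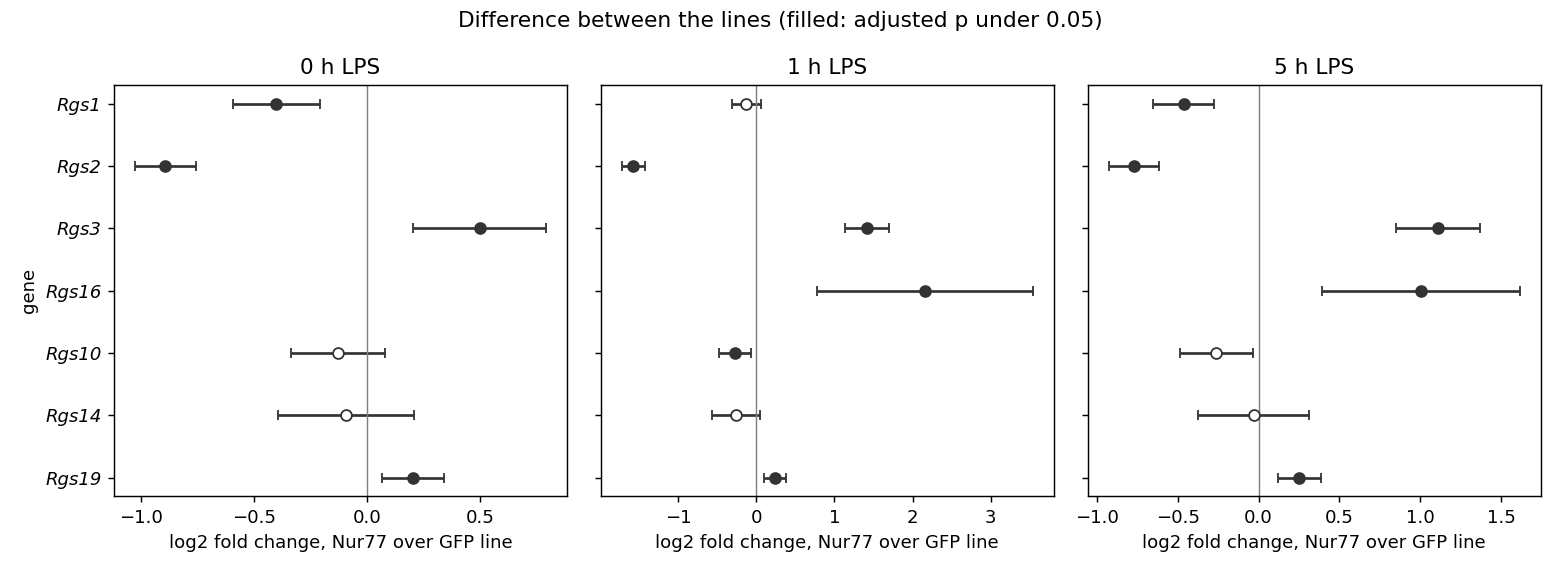
Log2 difference between the Nur77 and GFP lines (horizontal axis, positive where the Nur77 line is higher) of the 7 genes at 0, 1 and 5 h of LPS, with a separate axis range for each time. Points are edgeR estimates, bars are 95% intervals, and filled points have an adjusted p under 0.05. Rgs16 is not drawn at 0 h. Rgs2 lies at -0.89, -1.57 and -0.77, Rgs3 at 0.50, 1.42 and 1.11, and Rgs19 near 0.2 at all 3 times.

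Counted together, 5 of the 7 genes were called between the lines at 1 h, where 51.2% of all genes were called. Rgs3, Rgs16 and Rgs19 were higher in the Nur77 line, beside 26.4% of all genes, and Rgs2 and Rgs10 were lower, beside 24.8%. Without the library that stood apart the number was again 5, with Rgs14 in place of Rgs10, beside 50.8% of all genes. At 5 h 5 were called, beside 46.4% of all genes, with Rgs3, Rgs16 and Rgs19 higher (22% of all genes) and Rgs1 and Rgs2 lower (24.4%). In the fit without the library that stood apart the number at 5 h was 6, with Rgs10 added as lower, beside 51.4%. The median log2 difference over the 7 was -0.09 at 0 h, beside 0.02 over all genes tested.

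After 1 h of LPS 3 of the 7 were called in the GFP line, beside 17.4% of all genes, with Rgs1 and Rgs3 higher (9.75% of all genes) and Rgs2 lower (7.68%). In the fit without the library that stood apart 4 were called there, with Rgs16 added as higher, beside 21.5%. For the Nur77 line at 1 h the number was 5, beside 44.4%, with Rgs1, Rgs3 and Rgs16 higher (22.5%) and Rgs2 and Rgs14 lower (21.8%). The same 5 were called without the library that stood apart, beside 38.2%. At 5 h against 0 h Rgs1, Rgs3, Rgs16 and Rgs19 were higher and Rgs2, Rgs10 and Rgs14 lower in each line. In the GFP line 62.6% of all genes were called at 5 h, 30.6% higher and 32% lower, and in the Nur77 line 66.7%, 32.5% higher and 34.2% lower. The median over the 7 was 0.25 in the GFP line and 0.30 in the Nur77 line, beside -0.02 and -0.03 over all genes tested. The GFP median was also 0.25 with Rgs16 set at its ratio to the floor of 3 counts. From 1 to 5 h all 7 were called in both lines, with Rgs3, Rgs16 and Rgs19 higher and the other 4 lower. The background of that step was 55.2% of all genes in the GFP line, 27.5% higher and 27.7% lower, and 55.4% in the Nur77 line, 26.9% higher and 28.6% lower. Comparisons within a line share their groups, and so do the comparisons with the interactions.

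Levels of different genes were compared as CPM per kb of transcript, with the transcript length from GENCODE. For Rgs14 the length was that of its other transcript. For Rgs1 the GENCODE transcript, of 3841 bases, reaches to 144242296, beyond the RefSeq edge of the gene at 144244669. The length used may thus be too long and the level of Rgs1 per kb too low, so its place in the orders is uncertain. Rgs19 was taken at 1216 bases, and its transcripts with 93.2% to 98.8% of that count were 779 to 1511 bases long. Rgs3 was taken at 2752 bases, and its other form with the shared end was 3888 bases long. The levels per kb of Rgs19 and Rgs3 thus depend on the transcript chosen. In the GFP line at 0 h the order was Rgs2 at 41.8 ± 2.96, Rgs19 at 41.0 ± 1.70, Rgs1 at 30.5 ± 4.55, Rgs10 at 21.2 ± 3.45, Rgs14 at 7.18 ± 0.729, Rgs3 at 4.27 ± 0.248 and Rgs16 at 0 CPM per kb (n = 4). At these lengths Rgs2 and Rgs19 did not differ beyond their spread between libraries, which does not include the choice of length. In the Nur77 line at 5 h the order was Rgs19 at 57.9, Rgs1 at 33.2, Rgs3 at 24.1, Rgs10 at 10.6, Rgs2 at 4.12, Rgs16 at 4.03 and Rgs14 at 2.76 CPM per kb. These 2 groups differ in both line and LPS time. Within the Nur77 line, Rgs2 went from 22.5 CPM per kb at 0 h, behind Rgs19 at 47.1, to a level shared with Rgs16 at 5 h. Within the GFP line it went from 41.8 to 7.02, where Rgs16 was at 2.01. Rgs3 ended above Rgs10, Rgs14 and Rgs2 at 5 h in the Nur77 line. In the GFP line at 5 h it was at 11.1, above Rgs14 and Rgs2 but not Rgs10 at 12.7.

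**Figure D4:**
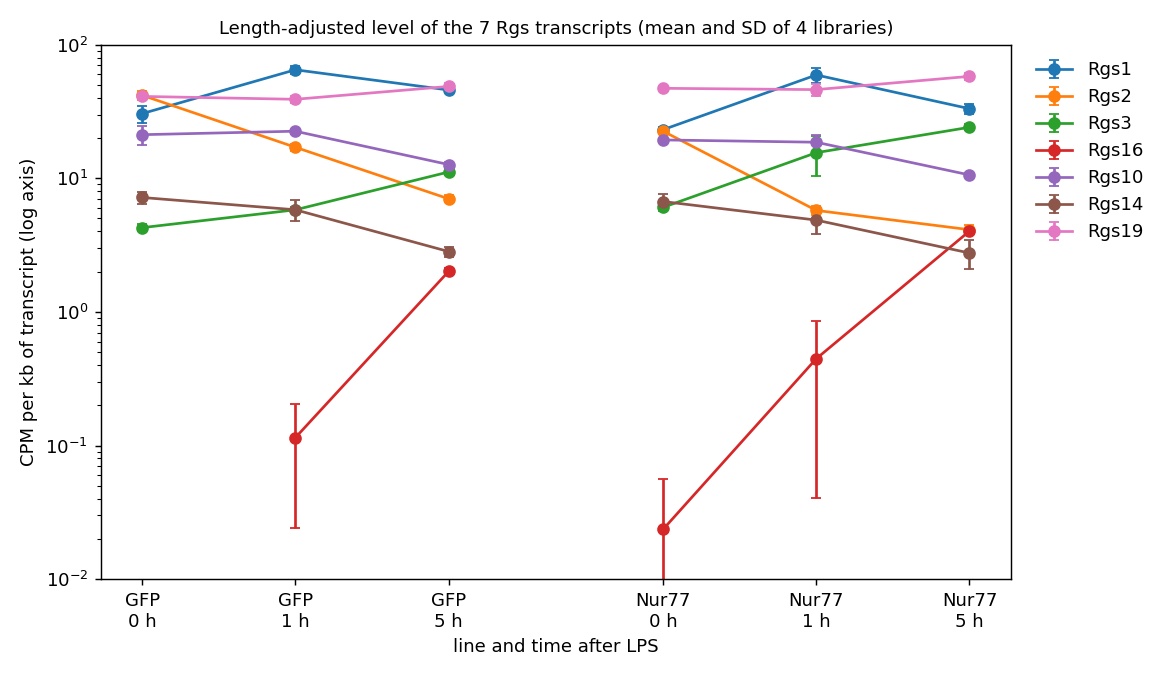
Mean and SD over 4 libraries of CPM per kb of transcript (log axis) for the 7 genes by line and hours of LPS. Rgs1 may lie too low, because the length used for it may be too long, and the levels of Rgs19 and Rgs3 depend on the transcript chosen. Rgs16 in the GFP line at 0 h is at 0 and cannot be drawn on this axis, and its lower bar in the Nur77 line at 0 h runs off the axis. From 0 to 5 h in the GFP line, Rgs2 goes from 41.8 to 7.02 and Rgs3 from 4.27 to 11.1. In the Nur77 line Rgs2 goes from 22.5 to 4.12 and Rgs3 from 6.055 to 24.1.

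Across the 24 libraries, Pearson's r of log2 CPM between members is given as a description, since the libraries share their groups and depth. Rgs2 and Rgs3 had the most negative value at -0.95. Rgs16 had r = 0.89 with Rgs3 and -0.90 with both Rgs10 and Rgs14. Rgs1 had no value beyond 0.36 in size with any of the other 6. Over the 23 libraries other than the one that stood apart, Rgs2 and Rgs3 had -0.96, and the largest for Rgs1 was -0.39, with Rgs19. By the same measure, over 9455 candidate genes that reached 10 CPM in at least 1 group (9456 for Rgs16), the 2 genes most like Rgs1 were Fbxo33 (0.97) and Gem (0.96), and those most like Rgs2 were Pdp1 and Plekhm1 (both 0.98). For Rgs3 they were Myl12a and Kpna4 (both 0.98), for Rgs10 S1pr1 and Pdcd4 (both 0.96 to 0.97), and for Rgs14 Slc35c2 and Mrps26 (both 0.95). For Rgs16 they were Tpm4 and Lcp1 (both 0.98), and for Rgs19 Psd4 (0.94) and Ppp4r1 (0.93). Over the 23 libraries these pairs had r from 0.937 to 0.982, but the 2 most like genes were different ones for Rgs10 (Erp29 and Pole2) and Rgs14 (Htra2 and Fbxo21), and 1 differed for Rgs3 (Actb) and Rgs16 (M6pr).

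Another 16 genes with an Rgs symbol were in the table, Rgs7bp and Rgs9bp among them, which encode anchor proteins that bind RGS proteins and are not RGS proteins themselves. The filter was passed by 5, Rgs11, Rgs12, Rgs18, Rgs20 and Rgs9bp. Rgs18, which lies beyond Rgs1 and Rgs21 on chromosome 1 (144752683 to 144775427) and is known from platelets and myeloid cells, was higher in the Nur77 line by 0.75 at 0 h (adjusted p = 3.87e-06), 1.06 at 1 h (adjusted p = 1.42e-08) and 1.69 at 5 h (adjusted p = 1.62e-12) on the log2 scale. The value at 1 h was 0.93 without the library that stood apart. Its level in the GFP line was 30.8 ± 3.29 CPM at 0 h and 29.4 ± 2.29 at 5 h, and in the Nur77 line 51.9 ± 3.86 and 94.6 ± 8.97 (n = 4 each). The interaction at 5 h was 0.94 for Rgs18 (adjusted p = 1.64e-04). Rgs12, of the same subfamily as Rgs10 and Rgs14, was lower in the Nur77 line by -1.02 at 0 h (adjusted p = 0.00529) and -1.91 at 5 h (adjusted p = 4.58e-05).

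The receptors, G proteins and effectors that these regulators meet were counted in 7 further lists. Before LPS, beside 20.3% of all genes called higher and 19.7% called lower, 5 of 13 tested Gi-coupled receptors were higher in the Nur77 line and 7 lower, with Gpr84 at 1.85, C5ar1, the receptor for complement C5a, at 0.92 and C3ar1 at -0.56 on the log2 scale. Of 13 tested receptors listed as Gq- or Gs-coupled 3 were higher and 3 lower, among them Lpar6 (1.45) and P2ry2 (-0.58). The coupling of each listed receptor was not checked. Of 9 alpha subunits none was higher and 3 were lower, Gnas (-0.34), Gna13 (-0.32) and Gnai2 (-0.21), the last not called without replicate 4 of the GFP line at 0 h (adjusted p = 0.063). The median of the alpha subunits was -0.14, beside 0.02 over all genes tested.

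Also at 0 h, and so against the same 20.3% and 19.7% of all genes, 2 of 13 beta and gamma subunits were higher in the Nur77 line and 5 lower, with Gng12 at -0.66, Gng7 at -0.78 and Gngt2 at 0.81. Of 6 receptor kinases and arrestins, which switch off active receptors, 2 were higher (Grk2 at 0.32 and Grk6 at 0.58) and 2 lower, Arrb1 among them at -0.58. Of 6 GoLoco proteins and Ric8 chaperones 2 were higher, Gpsm2 (0.31) and Rap1gap (0.88), and 1 was lower, Gpsm3 (-0.24), a call lost in 4 of 9 omissions of 1 library (adjusted p up to 0.0888). Of 13 effectors 5 were higher, including the cyclic AMP phosphodiesterase Pde4b (0.92) and Plcb4 (0.89), and 3 lower, including phospholipase C beta 2, Plcb2, at -2.28.

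At 5 h against 0 h of LPS, 30.6% of all genes were higher and 32% lower in the GFP line, and 32.5% and 34.2% in the Nur77 line. Receptor kinases and arrestins were mostly lower, 5 of 6 in the GFP line with a median of -0.62 and 4 of 6 in the Nur77 line with a median of -0.49, beside -0.02 and -0.03 over all genes. Arrb1 fell by 0.92 and 2.01 in the GFP and Nur77 lines, and Grk6 fell by 0.60 and 0.52. Of 9 alpha subunits 2 were higher and 5 lower in each line. Gnai3 rose by 0.67 and 0.68, and Gna15, the Gq-class subunit of blood cells, fell by 0.83 and 1.55. Of 13 Gi-coupled receptors 4 were higher and 5 lower in the GFP line and 6 and 6 in the Nur77 line, with C5ar1 at 2.30 and 2.33 and Hcar2, the niacin receptor, at 5.08 and 5.14. Of 13 receptors listed as Gq- or Gs-coupled 8 were higher and 4 lower in the GFP line and 7 and 5 in the Nur77 line. The adenosine receptor Adora2a went from 0.0218 ± 0.0252 CPM to 10.9 ± 1.87 in the GFP line and from 0.0671 ± 0.0496 to 5.48 ± 0.536 in the Nur77 line (n = 4 each). Of 13 effectors 5 were higher and 3 lower in each line, with Pde4b at 4.01 and 3.12. Of 13 beta and gamma subunits 3 were higher and 5 lower in each line, with Gng12 at 0.97 and 1.15. Of the 6 GoLoco proteins and chaperones 1 was higher in each line, Ric8a at 0.82 and 0.87, and 4 and 3 were lower, with Gpsm2 at -0.69 and -0.74.

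In the interaction at 5 h, 14 of the 73 tested genes of these 7 lists were called, 2 with a higher and 12 with a lower value in the Nur77 line, beside 7.88% of all genes, 2.75% higher and 5.12% lower. Gpr84 (-1.55), S1pr2 (-0.87) and Cx3cr1 (-1.72) had lower values among Gi-coupled receptors, and Lpar6 (-0.81) among the other receptors. For Gpr84 this was a smaller rise, of 2.60 by 5 h in the Nur77 line against 4.15 in the GFP line on the log2 scale. Arrb1 (-1.09) and Grk2 (-0.22) were lower among kinases and arrestins, Gna15 (-0.72) among alpha subunits, and Pde4b (-0.89), Pde4a (-0.70) and Plcb4 (-0.59) among effectors, while Gnb1 was higher (0.31). Of 17 omissions of 1 library each, 14 ended the call of Grk2 (adjusted p up to 0.102), 11 that of Lpar6 (up to 0.0862), 8 that of Gna15 (up to 0.0881) and 1, replicate 3 of the Nur77 line at 5 h, that of Gnb1 (0.0516). The call of Grk2 was also lost with DESeq2 size factors within edgeR, with no filter and with a replicate block. That of Lpar6 was lost with only the groups compared, and that of Gna15 with no filter.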

How the data were processed

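RNA was sequenced from 24 libraries of 6 groups. The authors deposited 1 table of estimated counts per RefSeq transcript, not normalized, in multiples of 0.5. CASAVA 1.8.2, HISAT2 2.1.0 and the build mm10 are named per the submitters' processing notes. The counter and its strand setting were not given in these sources, so reads of a gene and of an overlapping or antisense gene cannot be told apart.

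One transcript per gene was used, that of the highest mean, because most further transcripts of the members repeated nearly the same counts. The exceptions, forms of Rgs3 and Rgs19 with fewer counts, are given elsewhere in the text. Of 42361 transcripts, 42203 were matched to symbols through RefSeq of GRCm38.p6, 65 through GENCODE, and 93 kept their own identifier, which gave 25160 genes. Estimated counts were rounded to whole numbers, values ending in 0.5 to the even number. After filterByExpr by group, 12198 genes were fitted in edgeR 4.0.16 (R 4.3.3) with 6 group means, TMM factors of 0.896 to 1.14 and 18 residual degrees of freedom, by the robust quasi-likelihood method. P-values were adjusted by Benjamini-Hochberg over all genes in each of 12 comparisons, with calls under 0.05. On simulated counts for Nur77 against GFP at 0 h (11984 genes), 88% of changes of 0.5 and 100% of changes of 1 on the log2 scale were recovered. The changes, 100 of each size, were placed only in genes above a set mean level, with 1 spread for all genes. Of the unchanged genes 5 were called. The simulation does not cover genes at low levels such as Rgs16, the real spread of each gene or the interactions.

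The 7 genes, taken by symbol, and the gene lists were chosen with earlier results of these data known. Named were the 7 genes, up to 3 members of each list with the smallest adjusted p in the comparisons described, and the 2 genes most correlated with each of the 7 (log2 CPM, prior count 2). One gene that this rule names is not reported here. The SP1, CCAAT and PU.1 letters were added after the other 5 motifs had been searched. The alternatives tried were DESeq2 1.42.0 (Wald test), edgeR with DESeq2 size factors, no filter, 1 CPM in 4 libraries, only the groups compared, a replicate block, the mean over transcripts and the omission of each library. Rounding 0.5 up, counting the calls over all genes under each alternative, and repeating the correlations, the Rgs16 ratio and the other Rgs genes without replicate 2 of the Nur77 line at 1 h were chosen after seeing the data.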

Additional observations from a re-analysis of the deposited data

Results flagged for a closer look

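Chance alone flags about 1 in 20 groups of 4 for a library far from the others. Rgs1 in the Nur77 line at 5 h had replicate 1 at 142.9 CPM, with the nearest of the other 3 at 123.7. Rgs19 in the GFP line at 5 h had replicate 1 at 64.2 CPM, with the nearest at 58.0. The response to LPS differed between the lines by a test of the difference for Rgs2, at -0.68 from 0 to 1 h and 0.81 from 1 to 5 h on the log2 scale, and for Rgs3, at 0.92 from 0 to 1 h and 0.61 from 0 to 5 h. Both values for Rgs3 lost their call under some of the alternatives given with the results and kept it under others.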

How the results depend on the processing

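The 84 log2 values of the members (7 genes in 12 comparisons) were recomputed 1556 times under the alternatives. Of these, 1493 kept direction and side of the threshold, 39 lost a call, 7 gained one and 17 changed sign, none of them a called value. With only the groups compared, the members called were 2 between the lines at 1 h, 3 for LPS at 1 h in the Nur77 line and 1 in the interaction at 1 h. The interaction at 5 h had 0 members called without a filter, with the mean over transcripts and with the replicate block. With 1 library left out, the members called ranged from 3 to 5 between the lines at 1 h, from 1 to 2 in the interactions at 1 h and from 1 to 5 h, and from 0 to 1 in the interaction at 5 h. Between the lines at 5 h the range was 5 to 6. For LPS at 1 h it was 2 to 4 in the GFP line and 4 to 5 in the Nur77 line.

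Sign changes arose with 1 library left out, over these ranges: Rgs14 between the lines at 5 h (-0.13 to 0.10), Rgs10 (-0.008 to 0.186) in the GFP line and Rgs10 (-0.098 to 0.042) and Rgs19 (-0.102 to 0.011) in the Nur77 line at 1 h of LPS, Rgs16 (-1.66 to 0.19) and Rgs19 (-0.035 to 0.073) in the interaction at 1 h, Rgs1 (-0.153 to 0.011) and Rgs14 (-0.041 to 0.187) in that at 5 h, and Rgs10 (-0.08 to 0.075) and Rgs19 (-0.023 to 0.082) in that from 1 to 5 h. Rgs16 in the interaction at 1 h was 0.22 with 0.5 rounded up. The cause was not tested.

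Over all genes, the 138 calls of the interaction at 1 h became 499 by DESeq2, 91 with the replicate block, 47 with only the groups compared and 74 to 1597 with 1 library left out, 1597 without replicate 1 and 224 without replicate 2 of the Nur77 line at 1 h. The 5410 calls for LPS at 1 h in the Nur77 line became 3471 with only the groups compared, and the 961 of the interaction at 5 h became 2089 with that fit and 1681 without replicate 2 of the Nur77 line at 1 h. The 799 from 1 to 5 h became 1496 and 1261 without replicates 1 and 2 of that group.

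The replicate numbers left no clear shared pattern once group means were removed. Of 60 pairs with the same number in different groups, 8 correlated over 0.1 (median -0.015), and 3 of 24 libraries correlated best with their own number. This cannot show whether libraries of the same number were prepared together. The replicate block ended 1 of the 84 results, that of Rgs3 in the interaction at 5 h (0.61, adjusted p = 0.0562). Depth limits Rgs16 most, with 12 counts over the GFP line at 1 h.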

Other observations

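Rgs11 (R7 subfamily) varied widely within groups, with 9.63, 32.3, 11.4 and 11.3 CPM in the GFP line at 0 h, and was lower in the Nur77 line at 1 h (log2 -1.10, adjusted p = 0.0166) and 5 h (-1.14, adjusted p = 0.0135). The call at 1 h was lost (-0.98, adjusted p = 0.0558) when the library that stood apart was left out. Of the other 11 genes with an Rgs symbol in the table that did not pass the filter, Rgs9 had 66 counts over all 24 libraries and the other 10 had 7 or fewer each. The promoter windows of Rgs10 and Rgs19 held SP1 or PU.1 letters. In the Rgs3 windows TATAAA was found 100 to 95 bases before the first start and 177 to 172 bases before the second. The second window of Rgs3 also held SP1 and PU.1 letters. The Rgs3 windows lie before the starts at 62559847 and 62619672, and neither is at the start of the transcript used, which is 62674039 in GENCODE. The isoform NM_001291209 of Rgs19 held 51.7% of the count of the transcript used, against 93.2% to 98.8% for the other 5.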
